A study of Homo sapiens with 8 samples.

Results

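The 54 genes described here are interferon-stimulated genes and genes of the cytosolic nucleic acid sensing pathway, listed by name as known members of these pathways. They were 54 of the 60624 genes counted, and 51 of them were among the 18661 genes with enough counts to be tested. The genes were measured by RNA sequencing of A549 cells, an established human lung adenocarcinoma line, in 4 groups of 2 libraries: untreated, indisulam, SPHINX31 and the combination of both compounds. Indisulam is an aryl sulfonamide that brings the splicing factor RBM39 to an E3 ligase for degradation, and SPHINX31 inhibits SRPK1, a kinase that phosphorylates splicing factors. The study's methods state a treatment of 24 h with indisulam at 0.5 μM and SPHINX31 at 5 μM. The deposited labels instead give 18 h for every library, and 2 μM for the libraries with indisulam. The methods give that dose and time for a separate experiment in pancreatic cancer cells. The dose and time behind these counts are thus not settled by the labels and methods together. All libraries came from 1 cell line and the 2 libraries of a group are technical replicates. Every error and p-value below therefore covers the spread between such libraries and not between independent treatments.

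Double-stranded RNA in the cytosol is bound by the sensors RIG-I (gene RIGI) and MDA5 (IFIH1), which signal through MAVS, and cytosolic DNA is bound by cGAS, which signals through STING. Both routes can activate IRF transcription factors and the production of interferon beta (IFNB1). Secreted interferon binds its receptor and activates a complex that includes STAT2 and IRF9, which binds the interferon-stimulated response element (ISRE) in the promoters of interferon-stimulated genes. Many of the products then block steps of viral growth, and a low basal level of many of these genes is kept in cells that have met no virus.

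The libraries held 51727369 to 63186989 counts on genes. The 5 epithelial markers EPCAM, KRT8, KRT18, KRT19 and CDH1 summed to between 7037 and 8291 CPM (counts scaled to the TMM-adjusted library size). The leukocyte markers PTPRC, CD3E and LYZ had at most 12 counts in every library, whereas CD14, also on that list, had 6.83 to 9.76 CPM. At most 12 counts were also found for 3 of 5 endothelial and fibroblast markers. In bulk RNA, fewer cells with a transcript and less transcript per cell cannot be told apart. The mRNA of RBM39 was higher with indisulam, with a log2 fold change of 1.22, which checks neither the protein nor its degradation.

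Promoter windows from RefSeq (GRCh38.p14, 250 bases before to 50 after each annotated start) were found for 44 of the 54 genes. The ISRE core, GAAA followed after any 2 bases by another GAAA and searched on both strands, was present in the windows of 25 of these 44 genes (56.8%) and of 1195 of all 27305 genes with a window (4.38%). The core of the interferon gamma activated site, TTCNNNGAA, was present in 12 of the 44 (27.3%) and in 9.38% of all genes. The sequences below are stretches of such windows, 5′ to 3′ on the strand of the gene, with ISRE core matches of either strand in capitals. They are shown because genes with the same core were higher, lower or not called under the same treatment. IFIT1 (chr10:89392505-89392544, plus strand), IFIT3 (chr10:89327860-89327899, plus strand) and PARP9 (chr3:122564317-122564356, minus strand) were called higher with indisulam:
IFIT1: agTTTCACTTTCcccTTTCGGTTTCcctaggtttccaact
IFIT3: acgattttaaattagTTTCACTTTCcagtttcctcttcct
PARP9: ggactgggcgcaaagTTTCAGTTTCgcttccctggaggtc
HERC5 (chr4:88457030-88457069, plus strand), ISG20 (chr15:88638932-88638971, plus strand) and IFI44L (chr1:78620360-78620399, plus strand) were called lower with indisulam:
HERC5: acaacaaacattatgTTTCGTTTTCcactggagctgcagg
ISG20: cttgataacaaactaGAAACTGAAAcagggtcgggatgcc
IFI44L: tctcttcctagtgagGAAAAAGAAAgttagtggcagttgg
ISG15 (chr1:1013375-1013414, plus strand) and IFI6 (chr1:27672261-27672300, minus strand) were called in none of the comparisons:
ISG15: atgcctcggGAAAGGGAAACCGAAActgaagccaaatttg
IFI6: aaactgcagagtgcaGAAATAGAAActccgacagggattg
The core match of PARP9 (chr3:122564332-122564341) also lies in the window of its neighbour DTX3L, which is transcribed in the opposite direction. It begins 41 bases before an annotated PARP9 start, and begins 6 bases before the DTX3L start and reaches past it. A match is a description of the letters in these windows and not evidence of binding.

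Levels per length, given as TPM (counts per kb of exon, scaled to the same total in each library) computed from the counts and the exon length of each gene, covered more than 3 orders of magnitude. ADAR, which edits adenosine to inosine in double-stranded RNA, had the highest mean level over the 8 libraries with 114.8 TPM, followed by IFITM2 with 87.4 and IFITM3 with 75.3 TPM, membrane proteins that restrict viral entry. DTX3L and MAVS followed at 63.1 and 53.0 TPM. In total, 43 of the 54 genes had a mean of at least 1 TPM, 22 of at least 10 TPM, and 11 were below 1 TPM. The genes below 1 TPM included classical markers of an interferon response, namely MX1 (0.297 TPM), IFI44L (0.257), RSAD2 (0.168) and MX2 (0.0853). IFNB1 itself had 0 counts in all 8 libraries, which allows up to 0.0475 to 0.058 CPM depending on the library (3 counts, counting error only). XAF1 had 0 to 4 counts and DHX58, which encodes the RIG-I-like protein LGP2, had 3 to 9 counts per library, so that these 3 genes were not tested.

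**Figure D1:**
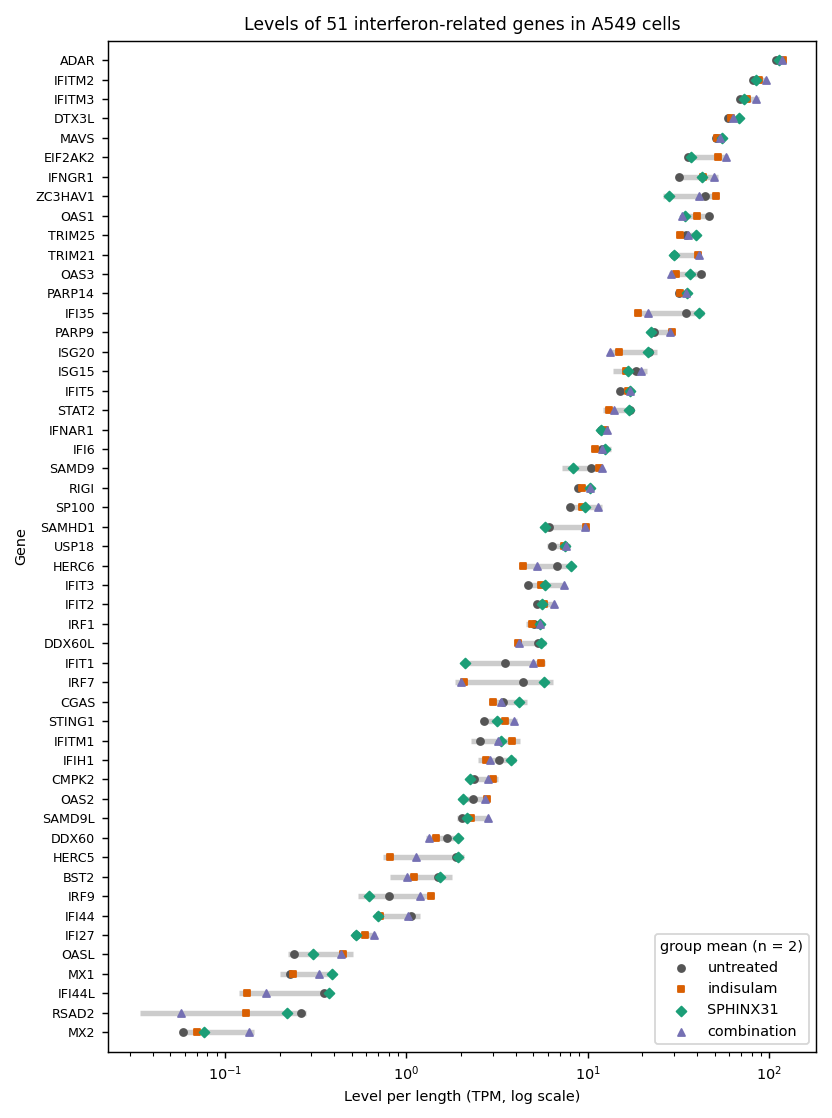
Levels of the 51 tested genes in TPM on a log scale. Symbols are group means of 2 libraries, and grey bars run from the lowest to the highest of the 8 libraries. ADAR is at the top with a mean of 114.8 TPM and MX2 at the bottom with 0.0853 TPM, and for most genes the 4 groups lie close together compared with the range between genes.

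To ask how each treatment changed these genes, a single quasi-likelihood model of edgeR was fitted to the 8 libraries, and p-values were adjusted over all 18661 tested genes with the Benjamini-Hochberg method ("edgeR adjusted p" below; called means under 0.05). With indisulam, 27 of the 51 tested genes (52.9%) were called against untreated cells, 16 higher and 11 lower, where 43.7% of all tested genes were called, 20.1% higher and 23.5% lower. The median log2 fold change of the 51 genes was 0.09 and that of all tested genes was -0.004. With SPHINX31, 7 of the 51 (13.7%) were called, 2 higher and 5 lower, against 8.61% of all tested genes, of which 4.94% were higher and 3.67% lower. With the combination, 30 (58.8%) were called against untreated cells, 18 higher and 12 lower, against 50% of all tested genes, with 23.8% higher and 26.3% lower. The genes thus moved in both directions under indisulam. With both directions pooled, the share called lay within 10 percentage points of the share over all genes in each of these comparisons. By direction, the share called higher was above that over all genes by more than 10 points with indisulam and with the combination, and the share called lower was slightly below it. With SPHINX31 the share called lower was above that over all genes. None of these differences in share was tested. Without untreated replicate 2, fewer of these genes were called with indisulam and with SPHINX31, and fewer of all tested genes as well. Each other fit with 1 library left out also called fewer of all tested genes than the main fit in these comparisons. Such fits leave 1 library in a group, which is then assumed to vary like the other groups.

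**Figure D2:**
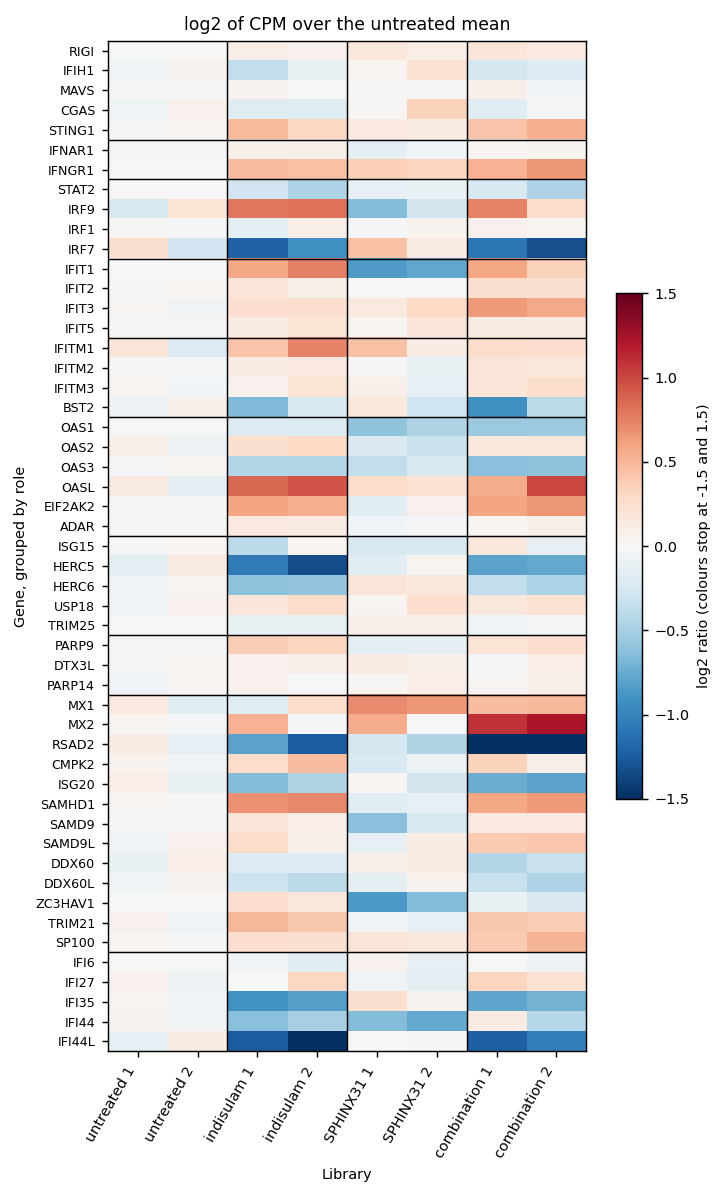
Each cell shows the log2 of CPM in 1 library over the mean of the 2 untreated libraries, for the 51 tested genes (rows, grouped by role) and the 8 libraries (columns). Red and blue rows both appear in the indisulam columns and return in the combination columns, as for SAMHD1 (log2 fold changes of 0.70 and 0.61) and IFI35 (-0.86 and -0.75), while IFIT1 and ZC3HAV1 are blue in the SPHINX31 columns.

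Among the sensors and adaptors, 1 of 5 tested genes was called with indisulam, where 43.7% of all tested genes were called. STING1, the adaptor downstream of cGAS, had 3.54 and 3.71 CPM in untreated, 5.02 and 4.49 in indisulam, 4.005 and 3.98 in SPHINX31 and 4.88 and 5.24 in combination libraries. All 4 libraries with indisulam were above the 4 without, and the log2 fold change with indisulam was 0.39 (SE 0.11, edgeR adjusted p = 0.0104). MAVS, the adaptor of the RNA sensors, stayed between 165 and 178 CPM over the 8 libraries, and its groups overlapped. RIGI had 25.7 and 25.8 CPM in untreated, 27.5 and 27.0 in indisulam, 28.8 and 27.6 in SPHINX31 and 29.2 and 28.5 in combination libraries, and was called only with the combination against untreated cells, with a log2 fold change of 0.16 (edgeR adjusted p = 0.0321). For IFIH1, values were 4.56 and 4.95 CPM in untreated, 3.68 and 4.44 in indisulam, 4.89 and 5.57 in SPHINX31 and 3.95 and 4.18 in combination libraries. Its only call was the combination against SPHINX31, at a log2 fold change of -0.37 (edgeR adjusted p = 0.0223). CGAS had 181 to 298 counts per library and was not called. The calls of RIGI and IFIH1 were not made by DESeq2. Leaving out 1 library at a time ended the call of STING1 without untreated replicate 1 or indisulam replicate 1 (edgeR adjusted p up to 0.104), that of RIGI without any of its 4 libraries (up to 0.135) and that of IFIH1 without SPHINX31 replicate 2 or either combination library (up to 0.177).

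Of the receptor chains, IFNGR1 was higher with each treatment. IFNGR1, the ligand-binding chain of the interferon gamma receptor (ENSG00000027697, chr6:137197483-137219449), had 31.9 and 31.4 CPM in untreated, 43.7 and 42.9 in indisulam, 40.4 and 39.6 in SPHINX31 and 45.4 and 49.5 in combination libraries. Every treated library was above both untreated ones, with log2 fold changes of 0.45 for indisulam (SE 0.0592, edgeR adjusted p = 4.34e-05), 0.34 for SPHINX31 (SE 0.0593, edgeR adjusted p = 0.00365) and 0.58 for the combination (SE 0.059, edgeR adjusted p = 2.88e-06). IFNAR1, a chain of the receptor for interferon alpha and beta, had 52.9 and 51.8 CPM in untreated, 55.5 and 55.9 in indisulam, 47.2 and 49.996 in SPHINX31 and 54.1 and 54.2 in combination libraries. It was called only for the combination against SPHINX31 (log2 fold change 0.16, edgeR adjusted p = 0.0264), a call that ended without SPHINX31 replicate 1 or either combination library (up to 0.104).

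The subunits of the interferon-activated transcription complex moved in opposite directions with indisulam. STAT2 had 44.4 and 44.6 CPM in untreated, 36.6 and 32.2 in indisulam, 40.8 and 41.6 in SPHINX31 and 38.0 and 32.3 in combination libraries, a log2 fold change of -0.37 with indisulam (SE 0.0784, edgeR adjusted p = 0.00186). IRF9, its DNA-binding partner, had 1.23 and 1.66 CPM in untreated, 2.49 and 2.53 in indisulam, 0.923 and 1.20 in SPHINX31 and 2.41 and 1.75 in combination libraries. Its log2 fold change with indisulam was 0.80 (SE 0.195, edgeR adjusted p = 0.00478), and 1544 of its exon bases are shared with another annotated gene on the same strand (ENSG00000259529), so that its counts are uncertain. IRF7, which drives the later phase of interferon production (ENSG00000185507, chr11:612553-615983), had 3.80 and 2.65 CPM in untreated, 1.39 and 1.71 in indisulam, 4.39 and 3.504 in SPHINX31 and 1.52 and 1.29 in combination libraries. All 4 libraries with indisulam were below the 4 without, and the log2 fold changes were -1.07 for indisulam (SE 0.198, edgeR adjusted p = 0.000732) and -1.20 for the combination (SE 0.199, edgeR adjusted p = 0.000234). IRF1 stayed between 15.8 and 18.4 CPM and was called in none of the comparisons. The call of IRF9 ended without untreated replicate 1 (log2 fold change 0.60, edgeR adjusted p = 0.0618).

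Of the IFIT family, which bind foreign RNA ends and block translation, IFIT1 (ENSG00000185745, chr10:89392546-89406487) moved in opposite directions with the single compounds. It had 4.50 and 4.51 CPM in untreated, 6.76 and 7.61 in indisulam, 2.49 and 2.62 in SPHINX31 and 6.75 and 5.75 in combination libraries. The SPHINX31 libraries were the lowest and the 4 libraries with indisulam the highest, with log2 fold changes of 0.67 for indisulam (SE 0.11, edgeR adjusted p = 0.000273), -0.82 for SPHINX31 (SE 0.125, edgeR adjusted p = 0.00146) and 0.47 for the combination (SE 0.111, edgeR adjusted p = 0.00305). IFIT3, which binds and stabilises IFIT1, had 6.84 and 6.47 CPM in untreated, 7.91 and 7.91 in indisulam, 7.40 and 8.22 in SPHINX31 and 10.4 and 9.91 in combination libraries. The combination libraries were the highest, with a log2 fold change of 0.61 against untreated cells (SE 0.0879, edgeR adjusted p = 7.53e-05), and it was the only member called higher with the combination than with indisulam alone (0.36, edgeR adjusted p = 0.0246). IFIT2 had 6.29 and 6.51 CPM in untreated, 7.31 and 6.81 in indisulam, 6.39 and 6.44 in SPHINX31 and 7.56 and 7.56 in combination libraries, and was called for the combination against untreated cells at a log2 fold change of 0.24 (edgeR adjusted p = 0.0349). On the opposite strand, LIPA overlaps 94 exon bases of IFIT3 and 65 of IFIT2. LIPA had 34421 counts in all, against 3714 for IFIT3 and 3137 for IFIT2. IFIT5 had 18.2 and 18.5 CPM in untreated, 19.8 and 21.3 in indisulam, 18.8 and 20.8 in SPHINX31 and 20.2 and 20.3 in combination libraries, and was not called. The calls of IFIT3 for indisulam against untreated cells (log2 fold change 0.25, edgeR adjusted p = 0.0398) and for the combination against indisulam, and that of IFIT2, were not made by DESeq2 and ended without any 1 of their 4 libraries (edgeR adjusted p up to 0.202, 0.12 and 0.17).

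The IFITM genes, which sit side by side on chromosome 11, showed small differences. IFITM2 had 37.1 and 36.2 CPM in untreated, 39.6 and 40.7 in indisulam, 37.2 and 34.2 in SPHINX31 and 42.1 and 41.0 in combination libraries. IFITM3 had 56.8 and 53.7 CPM in untreated, 57.6 and 63.7 in indisulam, 58.3 and 50.7 in SPHINX31 and 62.6 and 66.6 in combination libraries. Both were called with the combination against untreated cells, at log2 fold changes of 0.18 (edgeR adjusted p = 0.0217) and 0.23 (edgeR adjusted p = 0.0193). They are near-identical paralogs, so that reads could be split between them. IFITM1 had 1.36 and 1.04 CPM in untreated, 1.62 and 2.00 in indisulam, 1.62 and 1.30 in SPHINX31 and 1.45 and 1.43 in combination libraries. It was called only with indisulam (log2 fold change 0.58, SE 0.191, edgeR adjusted p = 0.0245) and not by DESeq2, and it overlaps an antisense gene (ENSG00000254910) that had 879 counts in all against 671 for IFITM1. BST2, which tethers budding virions, had only 14 to 29 counts per library and was not called. Leaving out 1 library ended the calls of IFITM1 without untreated replicate 2 or indisulam replicate 2 (edgeR adjusted p up to 0.19), of IFITM2 without either untreated library or combination replicate 1 (up to 0.131) and of IFITM3 without untreated replicate 2 or combination replicate 2 (up to 0.139).

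All 6 genes for enzymes that act on or respond to double-stranded RNA were called with indisulam, 4 higher and 2 lower, where 43.7% of all tested genes were called, and the calls of OAS2, OASL and ADAR did not hold with every library left out. EIF2AK2, which encodes PKR, the kinase that halts translation on binding double-stranded RNA (ENSG00000055332, chr2:37099210-37157522), had 110 and 112 CPM in untreated, 168 and 161 in indisulam, 99.9 and 116 in SPHINX31 and 167 and 175 in combination libraries. All 4 libraries with indisulam lay above the 4 without, and the log2 fold changes were 0.57 for indisulam (SE 0.0646, edgeR adjusted p = 1.23e-05) and 0.62 for the combination (SE 0.0645, edgeR adjusted p = 3.56e-06). The oligoadenylate synthetases, which make the activator of RNase L, did not move together although OAS1, OAS3 and OAS2 are neighbours on chromosome 12. OAS3 had 209 and 219 CPM in untreated, 158 and 158 in indisulam, 166 and 183 in SPHINX31 and 138 and 140 in combination libraries, lower than untreated in all 6 treated libraries and lowest with the combination (log2 fold change -0.62, SE 0.054, edgeR adjusted p = 7.15e-07). OAS1 had 170 and 170 CPM in untreated, 147 and 147 in indisulam, 112 and 124 in SPHINX31 and 116 and 116 in combination libraries. Its log2 fold changes were -0.21 for indisulam (SE 0.0533, edgeR adjusted p = 0.00695), -0.52 for SPHINX31 (SE 0.0535, edgeR adjusted p = 8.15e-05) and -0.55 for the combination (SE 0.0535, edgeR adjusted p = 2.07e-06). OAS2, at a lower level per length, had 7.75 and 6.99 CPM in untreated, 8.72 and 9.09 in indisulam, 6.33 and 5.90 in SPHINX31 and 8.20 and 8.30 in combination libraries, a log2 fold change of 0.27 with indisulam (edgeR adjusted p = 0.0252). OASL, a relative without synthetase activity, had 0.469 and 0.386 CPM in untreated, 0.774 and 0.824 in indisulam, 0.517 and 0.496 in SPHINX31 and 0.630 and 0.856 in combination libraries, with only 23 to 49 counts behind each value and a log2 fold change of 0.89 with indisulam (edgeR adjusted p = 0.0107). ADAR had 371 and 379 CPM in untreated, 415 and 409 in indisulam, 364 and 369 in SPHINX31 and 383 and 395 in combination libraries, and was called with indisulam only, at 0.14 (edgeR adjusted p = 0.0235). DESeq2 did not call OAS2 and OASL with indisulam, and the calls ended without untreated replicate 2 for OASL (edgeR adjusted p = 0.0816), without untreated replicate 2 or either indisulam library for OAS2 (up to 0.206) and without any 1 of 4 libraries for ADAR (up to 0.159).

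In the ISG15 pathway, which attaches the ubiquitin-like protein ISG15 to newly made proteins, the genes of the HERC family fell while ISG15 itself was not called. HERC5, the main ISG15 ligase in human cells (ENSG00000138646, chr4:88457119-88506163), had 2.28 and 2.73 CPM in untreated, 1.20 and 1.00 in indisulam, 2.23 and 2.58 in SPHINX31 and 1.43 and 1.47 in combination libraries. HERC6, its neighbour (ENSG00000138642, chr4:88378739-88443097), had 10.6 and 11.3 CPM in untreated, 7.15 and 7.26 in indisulam, 12.4 and 12.2 in SPHINX31 and 8.47 and 7.88 in combination libraries. For both, the 4 libraries with indisulam were below the 4 without, at log2 fold changes of -1.18 (SE 0.171, edgeR adjusted p = 0.000101) and -0.60 (SE 0.0829, edgeR adjusted p = 6.59e-05) with indisulam. ISG15 had 4.38 and 4.54 CPM in untreated, 3.39 and 4.57 in indisulam, 3.78 and 3.81 in SPHINX31 and 5.04 and 4.11 in combination libraries. The indisulam and combination libraries overlapped the untreated ones, and the SPHINX31 libraries were below both untreated and combination libraries, without a call. TRIM25, a ubiquitin ligase that acts on RIG-I, had 121 and 122 CPM in untreated, 113 and 112 in indisulam, 129 and 129 in SPHINX31 and 117 and 121 in combination libraries and was not called, nor was USP18, which removes ISG15 from proteins.

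PARP9 and DTX3L, whose products form a complex and which are transcribed away from each other from starts near the shared ISRE core printed above, were not called alike. PARP9 had 58.9 and 57.9 CPM in untreated, 75.4 and 72.9 in indisulam, 52.9 and 52.9 in SPHINX31 and 67.3 and 69.6 in combination libraries. The 4 libraries with indisulam were above the 4 without, with a log2 fold change of 0.34 for indisulam (SE 0.0508, edgeR adjusted p = 0.000117). DTX3L had 94.5 and 97.9 CPM in untreated, 100 and 102 in indisulam, 105 and 102 in SPHINX31 and 94.1 and 103 in combination libraries, and its log2 fold change with indisulam was 0.07 (SE 0.0545, edgeR adjusted p = 0.313). The difference between the changes of both genes was not itself tested, and 139 exon bases of the pair overlap on opposite strands. PARP14 stayed between 88.8 and 98.4 CPM and was not called.

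Among MX1, MX2 and the other antiviral effectors, 8 of 13 (61.5%) were called with indisulam, 5 higher and 3 lower, against 43.7% of all tested genes. SAMHD1, which depletes the deoxynucleotides needed for reverse transcription (ENSG00000101347, chr20:36890229-36951893), had 19.0 and 18.2 CPM in untreated, 29.8 and 30.6 in indisulam, 16.3 and 17.0 in SPHINX31 and 27.9 and 28.9 in combination libraries. The groups with and without indisulam did not overlap, and the log2 fold changes were 0.70 for indisulam (SE 0.063, edgeR adjusted p = 1.59e-06) and 0.61 for the combination (SE 0.063, edgeR adjusted p = 3.6e-06). TRIM21, a cytosolic antibody receptor and ubiquitin ligase, had 17.0 and 15.6 CPM in untreated, 22.9 and 21.5 in indisulam, 15.7 and 14.96 in SPHINX31 and 21.6 and 21.1 in combination libraries, a log2 fold change of 0.45 with indisulam (SE 0.0714, edgeR adjusted p = 0.000226). ISG20, an exonuclease for single-stranded RNA, had 47.3 and 41.1 CPM in untreated, 28.2 and 32.3 in indisulam, 45.2 and 36.4 in SPHINX31 and 26.3 and 25.2 in combination libraries. It was the reverse of SAMHD1, with all 4 libraries with indisulam below the others and log2 fold changes of -0.55 for indisulam (SE 0.0994, edgeR adjusted p = 0.00061) and -0.78 for the combination (SE 0.1, edgeR adjusted p = 2.62e-05). ZC3HAV1, which encodes the zinc finger antiviral protein ZAP (ENSG00000105939, chr7:139043515-139132122), had 105 and 105 CPM in untreated, 126 and 118 in indisulam, 58.0 and 66.8 in SPHINX31 and 98.3 and 90.2 in combination libraries. Here SPHINX31 set the lowest values, at a log2 fold change of -0.75 (SE 0.0688, edgeR adjusted p = 3.75e-05), whereas indisulam gave 0.21 (SE 0.0675, edgeR adjusted p = 0.0219). That smaller call ended without either untreated library or without indisulam replicate 1 (edgeR adjusted p up to 0.118).

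The remaining effectors were low or changed less. RSAD2, which encodes viperin, had 0.453 and 0.386 CPM in untreated, 0.241 and 0.177 in indisulam, 0.351 and 0.308 in SPHINX31 and 0.0525 and 0.122 in combination libraries. With 3 to 28 counts per library, its log2 fold changes were -0.99 for indisulam (SE 0.35, edgeR adjusted p = 0.0352) and -2.24 for the combination (SE 0.42, edgeR adjusted p = 0.000603), and 351 exon bases overlap CMPK2 on the opposite strand. MX2 had 0.243 and 0.235 CPM in untreated, 0.344 and 0.235 in indisulam, 0.351 and 0.239 in SPHINX31 and 0.507 and 0.559 in combination libraries, 12 to 32 counts each, and a log2 fold change of 1.15 for the combination against untreated cells (SE 0.313, edgeR adjusted p = 0.00764). RSAD2 and MX2 had the lowest levels per length of the tested members, and neither RSAD2 with indisulam nor MX2 with the combination was called by DESeq2. With indisulam, SP100, a nuclear body protein, was called higher at 0.24, and CMPK2, a mitochondrial nucleotide kinase, at 0.37, whereas DDX60L, a helicase, was called lower at -0.35. MX1, SAMD9, SAMD9L and DDX60 were not called with indisulam alone. The calls with indisulam ended without untreated replicate 2 for SP100 and DDX60L (edgeR adjusted p = 0.061 and 0.0562), without any 1 of 4 libraries for RSAD2 (up to 0.169) and without 3 of 4 for CMPK2, which are both untreated libraries and indisulam replicate 2 (up to 0.19), and DESeq2 did not call CMPK2.

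Of the IFI genes, IFI35 and IFI44L were lower with indisulam. IFI35, a leucine zipper protein (ENSG00000068079, chr17:43006740-43014456), had 19.7 and 18.6 CPM in untreated, 10.2 and 10.8 in indisulam, 22.6 and 19.8 in SPHINX31 and 11.1 and 11.7 in combination libraries. IFI44L had 1.05 and 1.24 CPM in untreated, 0.481 and 0.392 in indisulam, 1.14 and 1.16 in SPHINX31 and 0.490 and 0.559 in combination libraries. In both genes the 4 libraries with indisulam were separated from the rest, and the log2 fold changes with indisulam were -0.86 (SE 0.0825, edgeR adjusted p = 2.74e-06) and -1.38 (SE 0.224, edgeR adjusted p = 0.000264). IFI6, a mitochondrial protein and common readout of interferon, had 3.12 and 3.15 CPM in untreated, 3.03 and 2.79 in indisulam, 3.29 and 2.89 in SPHINX31 and 3.13 and 2.95 in combination libraries and was not called. IFI27 and IFI44, at 32 to 44 and 21 to 39 counts per library, were not called.

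**Figure D3:**
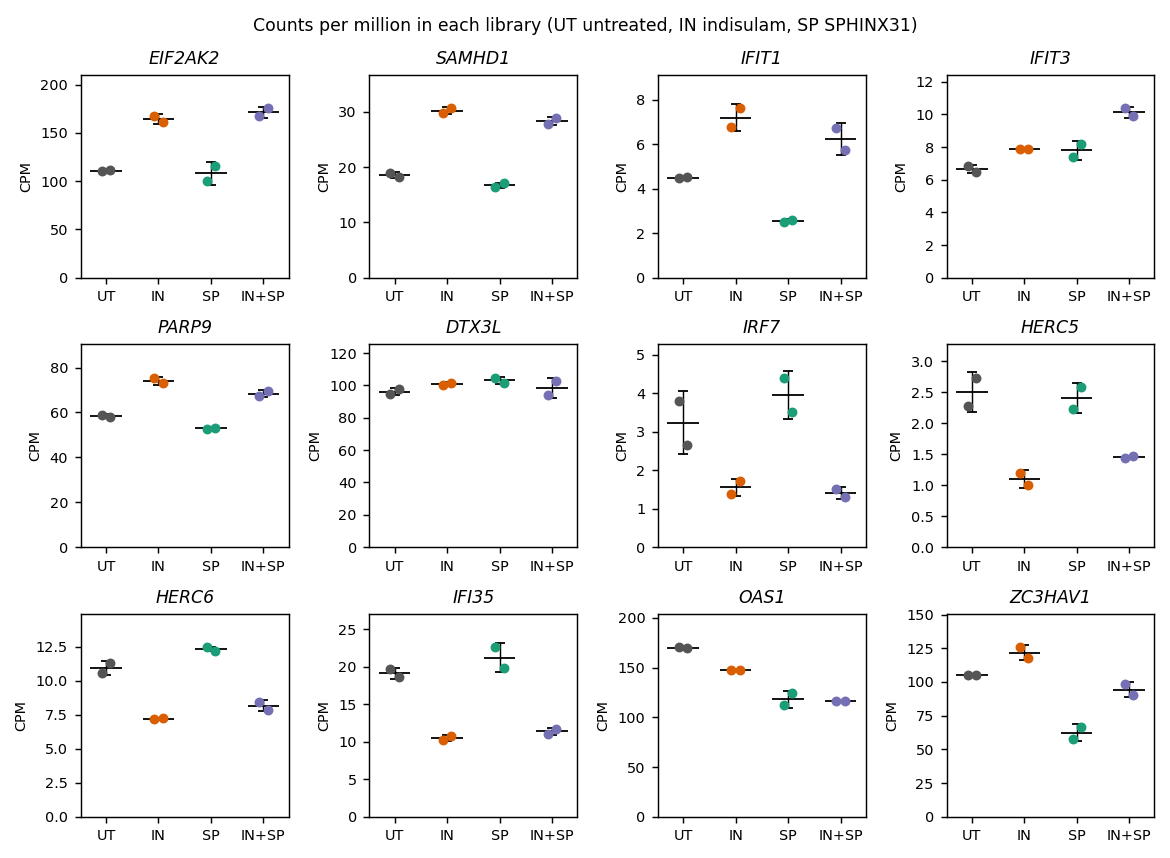
CPM of 12 genes in each library (points), with the group mean (line) and SD (bar, n = 2), on axes that start at 0. EIF2AK2, SAMHD1, IFIT1 and PARP9 are higher in the indisulam and combination groups, IRF7, HERC5, HERC6 and IFI35 are lower in them, DTX3L stays between 94.1 and 105 CPM, and OAS1 and ZC3HAV1 have lower values with SPHINX31 than in untreated cells.

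Whether the change with indisulam depended on SPHINX31 was examined with libraries that the comparisons do not share, indisulam against untreated cells and the combination against SPHINX31 alone. In the second comparison 32 of 51 genes (62.7%) were called, 20 higher and 12 lower, against 49.9% of all tested genes (23.4% higher and 26.5% lower). Of these genes, 23 were called in both comparisons in the same direction, which is 85.2% of the 27 and 71.9% of the 32, and 0 in opposite directions. Over all tested genes these shares were 83.1% and 72.7%. The log2 fold changes of the 51 genes correlated with a Pearson r of 0.854 and a Spearman rho of 0.832 across genes, which are not independent replicates, against r = 0.846 over all tested genes. SAMHD1 changed by 0.70 without and 0.77 with SPHINX31, EIF2AK2 by 0.57 and 0.66, IFI35 by -0.86 and -0.89, and HERC6 by -0.60 and -0.59. IFIT1 changed by 0.67 without SPHINX31 and by 1.29 with it (SE 0.121, edgeR adjusted p = 1.58e-06), and ZC3HAV1 by 0.21 and 0.59 (SE 0.0689, edgeR adjusted p = 1.09e-05). Across the 8 libraries, 17 of the 51 genes had all 4 libraries with indisulam above all 4 without and 13 had all 4 below, where 21.5% and 24.3% of all tested genes did.

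**Figure D4:**
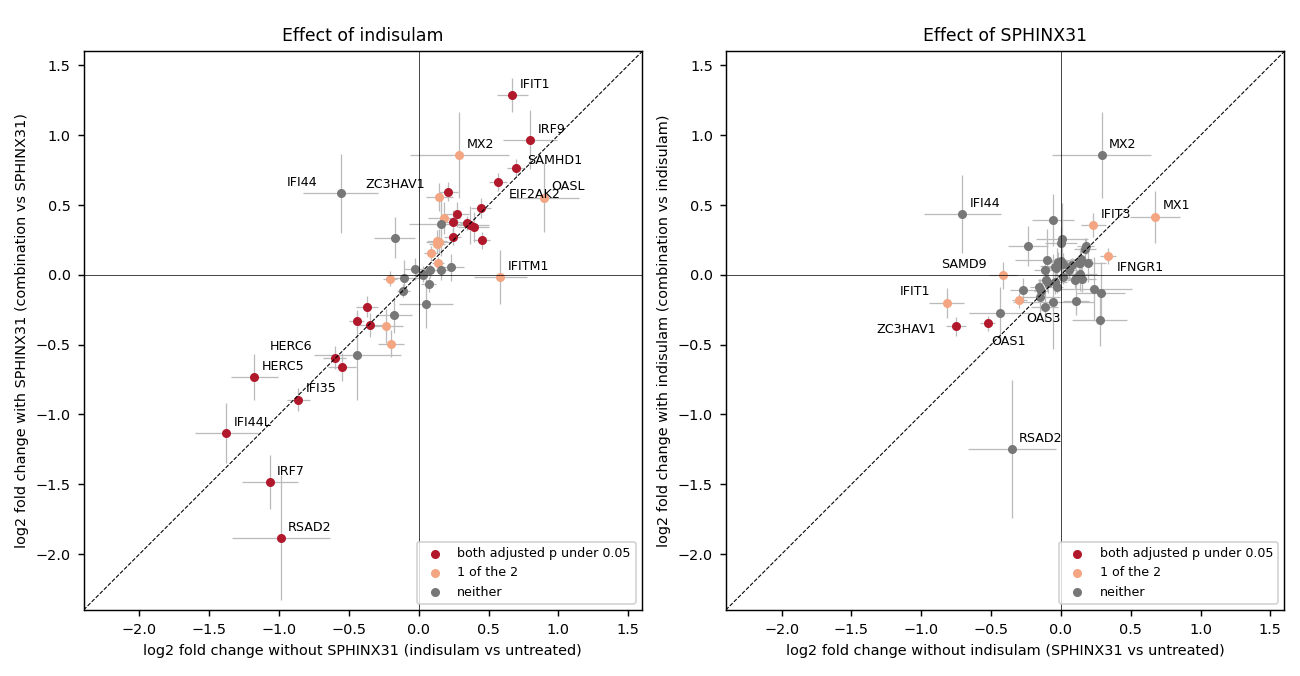
Log2 fold changes of the 51 genes with SE bars. Left, indisulam without SPHINX31 (x) and with it (y), where the points follow the dashed line of equality (r = 0.854) and IFIT1 lies above it; right, SPHINX31 without indisulam (x) and with it (y), where most points lie near 0 and OAS1 and ZC3HAV1 are called in both.

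SPHINX31 lowered a small set of these genes. Against untreated cells it lowered IFIT1 (log2 fold change -0.82), ZC3HAV1 (-0.75), OAS1 (-0.52), SAMD9 (-0.42) and OAS3 (-0.30), and raised MX1 (0.68) and IFNGR1 (0.34). SAMD9, an antiviral factor that blocks translation, had 20.2 ± 0.395 CPM in untreated and 15.1 ± 2.9 in SPHINX31-treated cells (SD, n = 2 each; SE 0.0999, edgeR adjusted p = 0.0203). MX1, a GTPase that traps viral nucleocapsids, had 1.16 ± 0.169 and 1.86 ± 0.063 CPM (SD, n = 2 each; SE 0.18, edgeR adjusted p = 0.0346). The call of MX1 was not made by DESeq2 and ended without any 1 of its 4 libraries (edgeR adjusted p up to 0.243), that of SAMD9 ended without either untreated library or SPHINX31 replicate 1 (up to 0.132) and that of OAS3 without untreated replicate 2 (0.0662).

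The change with SPHINX31 was then read in the presence of indisulam. In the combination against indisulam alone, 3 of 51 genes (5.88%) were called, 1 higher and 2 lower, against 7.5% of all tested genes, 3.17% higher and 4.32% lower. OAS1 was lower by a log2 fold change of -0.35 (SE 0.0536, edgeR adjusted p = 0.00199), ZC3HAV1 was lower by -0.37 (SE 0.0678, edgeR adjusted p = 0.00558) and IFIT3 was higher. Without combination replicate 2, fewer of these genes were called, and fewer of all tested genes as well. The call of ZC3HAV1 then ended, at a log2 fold change of -0.31. OAS1 and ZC3HAV1 were called in the same direction with and without indisulam, 28.6% of the 7 and 66.7% of the 3, where these shares were 39.9% and 45.7% over all tested genes. IFIT1 had a log2 fold change of -0.82 without indisulam and -0.20 with it (SE 0.107, edgeR adjusted p = 0.302). Tested directly as an interaction of both compounds, the difference was called for 0 of the 51 genes and for 0% of all tested genes by edgeR. DESeq2 also called 0 of the 51, and 30 over all genes. At an unadjusted p under 0.05, 8 of the 51 genes (IFNGR1, IFIT1, IFITM1, OAS1, SAMD9, DDX60, ZC3HAV1 and IFI44) passed, 15.7% of them, and 1584 of all tested genes did, 8.49% of them. The lowest edgeR adjusted p, 0.348, belonged to ZC3HAV1 and IFIT1, with interaction terms of 0.38 (SE 0.0963) and 0.62 (SE 0.164) on the log2 scale. With no filter beyond 1 count, edgeR called the interaction of 1 of these genes, ZC3HAV1, and of 94 of 34831 genes in all.

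Genes with an ISRE core in the promoter window were called in both directions, as were all tested genes. Of the 25 genes with a match, 6 were called higher with indisulam (IFIT1, IFIT3, IFITM1, EIF2AK2, PARP9 and TRIM21), 6 lower (OAS3, HERC5, RSAD2, ISG20, DDX60L and IFI44L) and 13 were not called. Over all tested genes 43.7% were called, 20.1% higher and 23.5% lower, and the 25 genes were not tested against these shares. Of 17 tested genes with a window but no match, 7 were called higher, 4 lower and 6 not called. With SPHINX31, 1 of the 25 was called higher (MX1) and 3 lower (IFIT1, OAS3 and SAMD9). Over all tested genes 8.61% were called, 4.94% higher and 3.67% lower.

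Further genes of the interferon pathway, a list of 52 sensors, ligands, kinases and interferon-stimulated genes outside the 54, were read in the same fit. Of 41 tested, 25 were called with indisulam (61%), 20 higher and 5 lower, where 43.7% of all tested genes were called, 20.1% higher and 23.5% lower. With SPHINX31, 5 were called (12.2%), 4 higher and 1 lower, against 8.61% of all tested genes. TBK1, the kinase that phosphorylates IRF3 downstream of MAVS and STING, had 64.2 and 66.7 CPM in untreated, 114 and 111 in indisulam, 60.6 and 67.8 in SPHINX31 and 113 and 115 in combination libraries, a log2 fold change of 0.78 with indisulam (edgeR adjusted p = 2.84e-07). Among other interferon-stimulated genes, GBP1 and GBP2, guanylate-binding proteins, were higher with indisulam at 0.76 and 0.66, whereas TDRD7 and PLSCR1 were lower at -1.04 and -0.60. Of 6 other interferon ligand genes, IFNE was the 1 tested, with a log2 fold change of 0.86 with indisulam (edgeR adjusted p = 0.00696), a call that ended without untreated replicate 1 or without indisulam replicate 1.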

How the data were processed

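The authors sequenced stranded libraries of polyadenylated RNA. The deposited values are raw read counts per Ensembl gene, 1 table per library. The authors' processing notes name HISAT2 2.2.1, HTSeq and GRCh38 with no role; the strand setting and annotation of the counting are not given in the sources used here, so reads of overlapping genes may be divided in either way. Differential expression was tested with edgeR 4.0.16 (R 4.3.3): filterByExpr, TMM, 1 quasi-likelihood fit of all 8 libraries by group, and Benjamini-Hochberg adjustment over 18661 genes. The procedure was tested on simulated data. SE is the absolute log2 fold change over the root of F. Names, positions and exon lengths came from GENCODE 44 (GRCh38), and figures and promoter searches used Python 3.11.15. The genes, the pathway list and the markers were chosen with earlier results of these data known. CPM per library is given for up to 5 called members per role by absolute log2 fold change and the 2 of highest level. At most 8 pathway genes are named, by the same measure from 0.5. Alternatives were RLE factors, library totals alone, DESeq2 1.42.0, looser and stricter count filters, only the groups compared, an adjusted p under 0.1, a replicate block and leaving out each library. Blocks with exchanged numbers were added after the data were seen. Some items are not reported here. No reads were realigned and exon inclusion was not analysed here.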

Additional observations from a re-analysis of the deposited data

Results flagged for a closer look

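The reads that fell outside annotated features, which enter no gene count, were a larger share in all 4 libraries with indisulam than in the untreated libraries. They made up 5.481% and 4.491% of the reads recorded in indisulam replicates 1 and 2, and 5.875% and 4.872% in combination replicates 1 and 2, above the 3.942% and 4.337% of the untreated libraries. In SPHINX31-treated cells the share was 3.665% and 3.929%. The difference was not tested, and its part in the counts of the interferon-related genes was not tested.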

How the results depend on the processing

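The called fold changes of the 54 genes numbered 99 over the 5 comparisons between groups. A call counted as kept where an alternative gave no value, as for RSAD2, which the stricter count filter removed. None changed sign under any alternative run, 79 kept the call under every listed alternative with all libraries kept, 20 lost it under at least 1, and 37 lost it when 1 library was left out. Of the 54 genes, DESeq2 called 21 with indisulam, 6 with SPHINX31 and 24 with the combination against untreated cells. Over all genes it called 6499, 1470 and 7513, where the main fit called 8148, 1606 and 9337. For the combination against indisulam, 5 members were called with no filter beyond 1 count and 5 at an adjusted p under 0.1, against 3. At an adjusted p under 0.1, 10 of the pathway list were called there, against 6. Over all genes these alternatives called 1879 and 2226, against 1399 in the main fit. The interaction called 1 member, ZC3HAV1, with no filter beyond 1 count, and 94 of 34831 genes in all, against 0 in the main fit. The cause was not tested. In the 5 comparisons between groups, each fit without 1 library of the groups compared called fewer of all tested genes than the main fit. Lower counts in these fits were thus not limited to the members and the pathway list. With each library left out in turn, members called ranged from 17 to 21 for indisulam, 4 to 6 for SPHINX31, 23 to 25 for the combination against untreated cells, 1 to 2 against indisulam and 23 to 28 against SPHINX31, and 0 to 0 for the interaction. For the pathway list these ranges were 16 to 22, 3 to 4, 22 to 27, 0 to 3 and 19 to 23. The lowest counts of the list came without untreated replicate 1 for indisulam (16) and without combination replicate 2 for the combination against indisulam (0).

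The labels number the libraries of a group 1 and 2 without saying that equal numbers were handled together. Deviations of same-numbered libraries correlated at -0.566 between untreated and indisulam, 0.452 between untreated and SPHINX31 and -0.492 between indisulam and SPHINX31. Correlations of the combination with the other groups ran from 0.0118 to 0.167. The main fit took the libraries to share only a number, and whether some were handled together was not tested. With the replicate block, 25, 6, 28, 3 and 30 members were called in the comparisons above, and 0 for the interaction. Over all tested genes the block called 7851, 1330, 9077, 1169 and 9074, against 8148, 1606, 9337, 1399 and 9314 in the main fit. After these correlations were seen, the block was refitted with the 2 indisulam libraries crossed, and 6 members and 10 of the pathway list were called for the combination against indisulam. Crossing both groups with indisulam gave 5 members there, and 2210 of all tested genes against 1399 in the main fit. With only the indisulam libraries crossed, 8952 of all tested genes were called with indisulam and 2630 with SPHINX31 against untreated cells. The main fit called 8148 and 1606. For the combination against indisulam that block called 2252 of all tested genes, against 1399 in the main fit. Genes under about 50 counts per library, such as OASL, MX2, RSAD2, BST2, IFI27 and IFI44, are limited by depth.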
